A study of Mus musculus with 16 samples.

Results

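The genes of COPI and COPII vesicle trafficking were followed in RNA sequencing of sorted mouse colon epithelium. The set is a list of 37 genes, found by their Ensembl identifiers among the 45513 genes counted in every sample, and all 37 had enough counts to be tested. The 8 mice carried the alleles Atoh1(WT)CreERT2; Rosa26tdTom/+, in which CreERT2 sits downstream of the Atoh1 coding sequence, so that tamoxifen marks cells in which Atoh1 is active, and their descendants, with the fluorescent protein tdTomato. Every mouse received 1 mg of tamoxifen per day for 3 days, and live EpCAM+ tdTom+ cells and live EpCAM+ tdTom- cells of the same colon were sorted and sequenced, giving 8 tdTom+ and 8 tdTom- samples. The strain was C57BL/6, both sexes were used at 8 to 16 weeks of age, and the mice were homozygous for the Atoh1 allele and carried 1 reporter allele. Both groups therefore share the genotype, the drug and the animal, and differ by the sort. The tdTom+ gate collects cells by reporter history and not by cell type, and cells in which recombination failed would remain in the tdTom- group.

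Proteins made for secretion enter the endoplasmic reticulum (ER), fold there and leave in vesicles whose buds are shaped by coat proteins. The COPII coat forms at ER exit sites: the GTPase SAR1 recruits the inner coat of SEC23 and SEC24, where SEC24 binds cargo, and the outer cage of SEC13 and SEC31 follows. The COPI coat, a complex of 7 kinds of subunit recruited by the GTPases of the ARF family, forms on the Golgi and returns escaped ER proteins, cargo receptors and membrane to the ER. KDEL receptors, lectin receptors and the p24 proteins (TMED) travel between these compartments and pick their cargo by signals it carries. Goblet cells of the colon use this route to make mucus, which consists largely of the mucin MUC2, and Atoh1 encodes the transcription factor needed for secretory fate in the intestine.

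Most of the coat and receptor genes were expressed at higher levels in tdTom+ cells. By edgeR's quasi-likelihood test on the counts, with Benjamini-Hochberg adjustment over all 15841 genes tested and a threshold of 0.01, 31 of the 37 genes were higher in tdTom+ cells, 1 was lower (Sec23a) and 5 did not pass (Sec24b, Sec24c, Sar1b, Copg2 and Tmed6). Of all genes tested, 25.5% were higher and 25.5% were lower. The median log2 fold change of the 37 genes was 0.89, a 1.85-fold difference. The median over all genes tested was 0.0039, which the scaling of the libraries sets near 0. A log2 fold change of at least 1 was reached by 16 of the 31 genes called higher, and by 7.59% of all genes tested in that direction; Sec23a fell by more than 1, as 9.16% of all genes did. The lowest tdTom+ sample was above the highest tdTom- sample for all 31 genes called higher, a separation seen for 15.2% of all genes tested. Such a separation fixes in advance that all 8 mice show the same direction for each of these 31 genes. CPM are counts scaled to a common library size, and a difference of 1 in log2 CPM is a doubling. With the mouse as a block, 33 members were higher and 2 lower, against 28.4% and 28.9% of all genes.

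**Figure D1:**
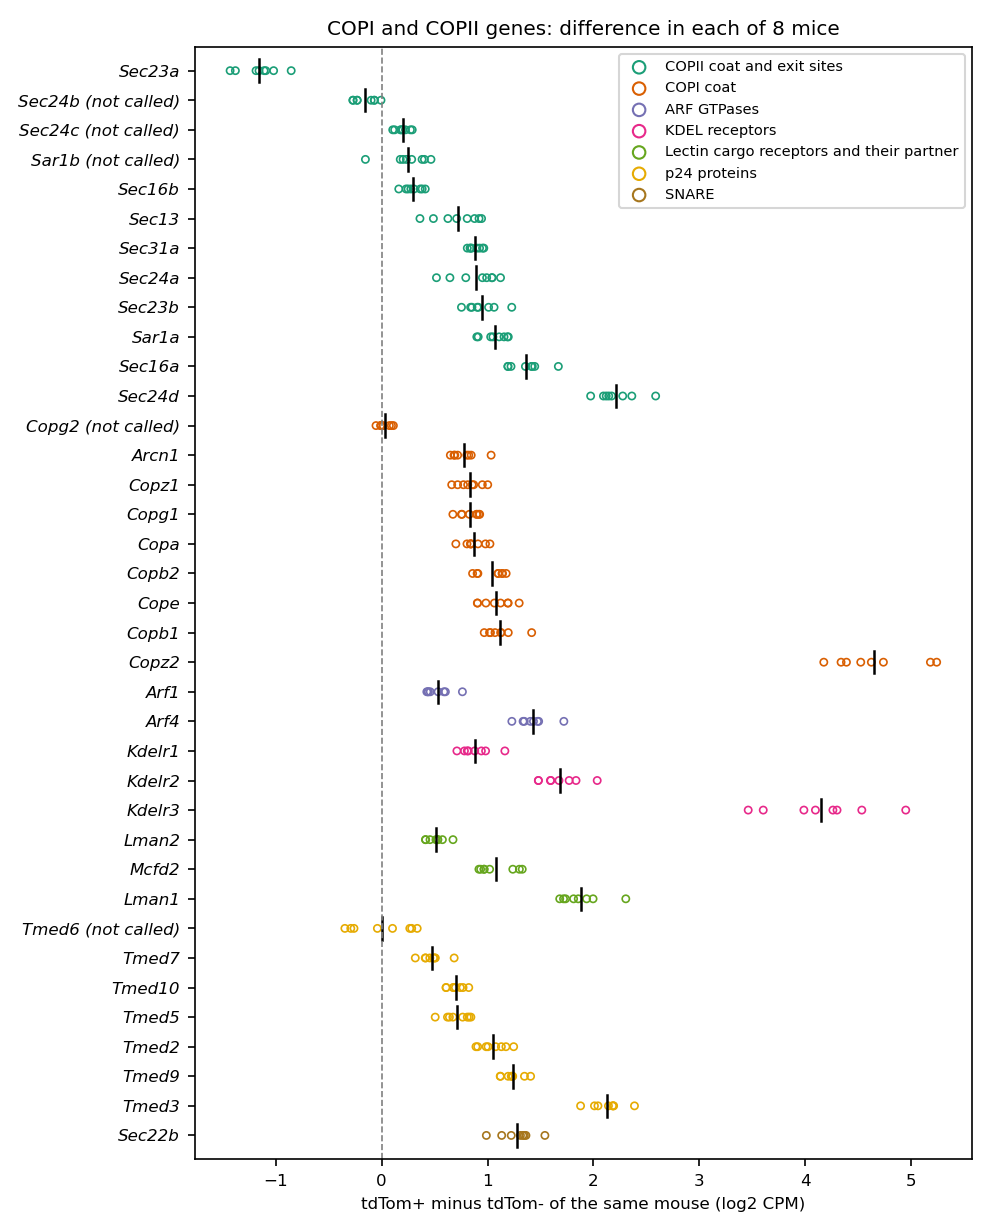
Difference between the tdTom+ and the tdTom- sample of the same mouse, in log2 CPM, for each of the 37 genes, grouped by role. Each circle is 1 of 8 mice and each black line the mean. Copz2 and Kdelr3 lie far to the right, between 3.46 and 5.24 in every mouse, and Sec23a lies left of 0 in all 8.

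The pattern was much the same in each animal. The median difference over the 37 genes ranged from 0.84 in mouse 3 to 1.12 in mouse 1 on the log2 CPM scale. The median over all genes, set near 0 by the scaling of the libraries, lay between -0.03 and 0.03. Between 33 and 35 members were above 0 in each mouse. Sec23a was the lowest and Copz2 the highest member in all 8 mice. Total counts per sample ranged from 16482530 to 45791503, and the deepest library was the tdTom- sample of mouse 4, since no other exceeded 24218367. Without it 31 members were higher and the median log2 fold change of all 37 was 0.89. Mouse numbers in the sample titles fall into 3 series, whose meaning is not given. In the first series (mice 1 to 3) 30 members were higher, and the median log2 fold change of all 37 was 0.92. In the third (mice 5 to 8) 31 were higher, and the median of all 37 was 0.89. The second series holds only mouse 4.

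The 2 sorts differed in cell makeup. All 8 goblet cell markers were higher in tdTom+ cells, and their summed level was 51182 to 106942 CPM there against 2263 to 8807 CPM in tdTom- samples; Muc2 alone ranged from 11699 to 16981 CPM in tdTom+ samples (median 12855) and from 278 to 908 CPM in tdTom- samples (median 489). All 7 absorptive cell markers (summed, 328 to 640 CPM against 5740 to 11347 CPM), all 6 enteroendocrine markers (310.2 to 785 against 1339 to 3848 CPM), all 4 stem cell markers (133 to 177 against 163 to 261 CPM) and 4 of 5 tuft markers (34.9 to 76.6 against 63.6 to 109 CPM) were lower. Of 5 general epithelial markers 1 was higher and 4 were lower, and of 4 proliferation markers 1 was lower. Among 4 markers of plasma cells, which are also rich in secretory RNA, Mzb1 and Tnfrsf17 did not exceed 0.152 CPM in any sample, and Jchain reached 0.169 CPM in tdTom+ and 1.32 CPM in tdTom- samples. Sdc1, which epithelium also expresses, was the only one of the 4 with enough counts to be tested, and it was lower in tdTom+ cells. Of 9 immune markers 3 could be tested and 1 was lower, and of 7 stromal markers 2 could be tested and 1 was lower. The part of any of these cell types in the results on the coat genes was not tested. In such bulk samples fewer cells of a type and less RNA per cell cannot be told apart.

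The DNA just before the start sites of these genes is shown first, for members with the largest differences. Each stretch was cut around a match to a short letter pattern, so the pattern's presence in it was fixed by the choice. ACGTG is the core of sites known to be bound by XBP1, ATF6 and the CREB3 family, factors that act on secretory pathway genes. It was looked for on both strands in the RefSeq promoter windows of mouse build GRCm38.p6, each from 250 bases before to 50 bases after the start of a transcript; 32 of the 37 members matched the table, with 36 windows (not matched: Arcn1, Kdelr2, Lman1, Tmed2 and Tmed7). Capitals mark ACGTG, or the longer TGACGTG that contains it, as read in the direction of the gene; CACGTCA is TGACGTG on the other strand. Positions count back from the start site, with the base just before it at -1. Copb1 is shown as a further example of the longer motif and was chosen after its values were seen. The sequences, which end before the first base of the gene in the counting annotation, are Copz2 at chr11:96849716-96849800 (plus strand, motif from position -120), Kdelr3 at chr15:79516339-79516407 (plus strand, position -29), Tmed3 at chr9:89705200-89705284 (minus strand, position -201) and Copb1 at chr7:114254681-114254747 (minus strand, position -27).
Copz2: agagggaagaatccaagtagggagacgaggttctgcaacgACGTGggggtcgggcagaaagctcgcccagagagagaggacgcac
Kdelr3: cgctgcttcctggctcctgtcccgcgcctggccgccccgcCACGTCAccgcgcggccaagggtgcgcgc
Tmed3: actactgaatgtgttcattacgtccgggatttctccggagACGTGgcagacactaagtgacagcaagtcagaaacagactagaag
Copb1: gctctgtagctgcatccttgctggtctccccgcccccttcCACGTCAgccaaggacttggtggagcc

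ACGTG was present in 26 of the 36 member windows (72.2%), compared with 19.6% of all 32851 windows in the table and 25.0% of the 13289 windows of the 10438 genes tested that it holds. Windows of genes higher in tdTom+ cells held it in 28.9% of cases, those of genes lower in 21.2% and those of genes not called in 25.1%. TGACGTG occurred in 8 of the 36 member windows (22.2%), against 2.01% of all windows and 2.87% of windows of genes tested. The ER stress element, CCAAT and CCACG with 9 bases between them, was in 0 of the 36 windows and in 0.119% of all windows. CAGCTG, an E-box of the kind that ATOH1 and BHLHA15 are known to bind, was in 3 of the 36 (8.33%) and in 16.3% of all windows. Median GC content was 58.0% in the member windows, 60.3% in windows of genes tested and 52.7% in all windows. Genes of the list with and without the motif overlapped in the size of their differences. The 24 genes with ACGTG had log2 fold changes from -1.16 to 4.74 with a median of 0.97, and the 8 without it (Copa, Copg2, Kdelr1, Sar1b, Sec22b, Sec23b, Tmed5 and Tmed6) from 0.02 to 1.28 with a median of 0.79. Sec23a, the gene that fell, has TGACGTG 7 bases after its start, while Sec23b, which rose, has no ACGTG in its window. These matches describe letters in a window and are not binding sites; members were not tested as a group.

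Among the COPII genes, 8 of 12 were higher, 1 was lower and 3 were not called, and the median log2 fold change was 0.80. Those calls stand beside 25.5% higher and 25.5% lower over all genes tested. Sec24d, which encodes 1 of the 4 cargo-binding SEC24 proteins of the inner coat, changed most. It ranged from 161 to 235 CPM in tdTom+ samples (median 217) and from 35.7 to 53.0 CPM in tdTom- samples (median 45.6). The groups did not overlap, and tdTom+ cells had 4.66-fold the level of tdTom- cells, with a log2 fold change of 2.22 (SE 0.101, adjusted p = 1.09e-13). Sec24a ranged from 79.2 to 105 CPM in tdTom+ samples (median 96.5) and from 45.8 to 55.3 CPM in tdTom- samples (median 51.0), also without overlap, at a log2 fold change of 0.90 (SE 0.0637, adjusted p = 1.21e-10). The other two SEC24 genes overlapped between the groups. Sec24c ranged from 169.5 to 232 CPM in tdTom+ samples (median 213) and from 158 to 194 CPM in tdTom- samples (median 181), with a log2 fold change of 0.20 (SE 0.0647, adjusted p = 0.0112); it was above its tdTom- partner in 8 of 8 mice, and the paired fit, with the mouse as a block, called it higher (adjusted p = 0.000684). Sec24b ranged from 46.1 to 58.8 CPM in tdTom+ samples (median 52.7) and from 54.2 to 63.0 CPM in tdTom- samples (median 58.2), with a log2 fold change of -0.15 (SE 0.0552, adjusted p = 0.0217); it was below its partner in 8 of 8 mice, and the paired fit called it lower (adjusted p = 0.0072).

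Summed per kilobase of exon, the 4 SEC24 genes together were 1.57-fold higher in tdTom+ cells at the median of the 8 mice (range 1.42 to 1.67), and the makeup of that sum shifted. Sec24d made up 34.4% of it in tdTom+ samples at the median and 11.4% in tdTom- samples. Sec24c fell from 65.4% to 47.2% of the sum but remained the largest part in both groups, and Sec24b went from 15.3% to 9.17%. An exact permutation test over the 8 mice on the within-mouse difference between the log2 changes of 2 related genes (two-sided, Benjamini-Hochberg adjusted over 14 pairs) gave p = 0.00781 for Sec24c against Sec24d, whose changes differed by -2.02 ± 0.19 (SD, n = 8) on the log2 scale, and the same p for Sec24a against Sec24b, which differed by 1.04 ± 0.22. That value is the smallest 8 mice allow, and all 14 pairs reached it. Any pair with 1 direction in all 8 mice gets that p before adjustment. The pairs were drawn from members chosen with earlier results of these data known. How often other pairs of genes would reach the same p was not tested.

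The partner of SEC24 in the inner coat, SEC23, also has genes that moved apart. Sec23a (chr12:58958383-59012017, minus strand, build GRCm38) was lower in tdTom+ cells, at 27.8 to 34.9 CPM in tdTom+ samples (median 32.2) and 62.4 to 79.1 CPM in tdTom- samples (median 71.5). Its groups did not overlap, and the log2 fold change was -1.16 (SE 0.0612, adjusted p = 1.15e-12), so that tdTom- cells held 2.23 times the tdTom+ level. Sec23b (chr2:144556229-144590749, plus strand) went the other way, at 87.6 to 139 CPM in tdTom+ samples (median 130.1) and 51.9 to 75.2 CPM in tdTom- samples (median 64.5), again without overlap and with a log2 fold change of 0.95 (SE 0.0937, adjusted p = 1.90e-08). The difference between the changes of Sec23a and Sec23b was -2.10 ± 0.18 on the log2 scale and lay between -2.28 and -1.77 in the 8 mice (exact permutation test, adjusted p = 0.00781). Opposite changes without overlap fix the direction in every mouse, and so the p before adjustment, in advance. Per kilobase, Sec23a was the larger of the pair in every tdTom- sample, with 54.9% to 66.5% of their sum, and the smaller in every tdTom+ sample, with 22.8% to 30.3%. The tdTom- ranking depends on exon length. In CPM, Sec23b was the larger in the tdTom- samples of mouse 4 (63.96 against 62.42) and mouse 7 (75.23 against 70.42), and Sec23a in the other tdTom- samples. Their sum was 26.1 ± 3.23 CPM per kb in tdTom+ and 24.8 ± 1.68 CPM per kb in tdTom- samples (mean ± SD, n = 8), with ratios from 0.812 to 1.25 within mice.

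**Figure D2:**
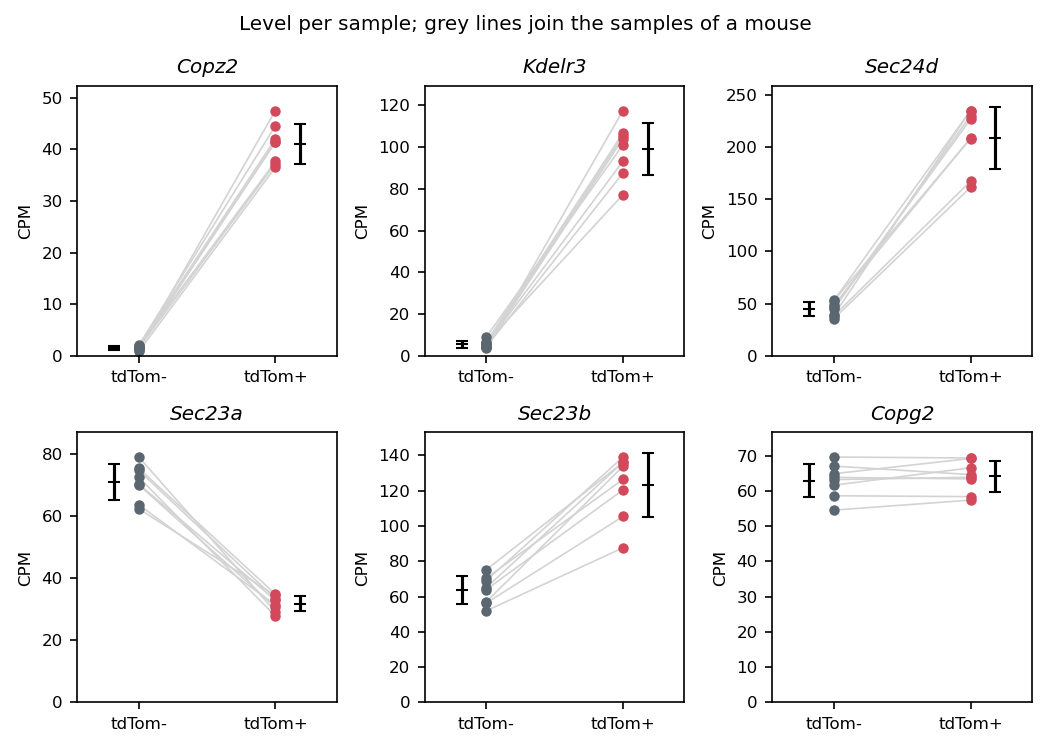
CPM of 6 genes in each of the 16 samples, tdTom- on the left and tdTom+ on the right of each panel, with grey lines joining the samples of a mouse and black marks giving the mean and SD of 8 samples. Axes start at 0. Copz2, Kdelr3, Sec24d and Sec23b rise along every line, Sec23a falls along every line, and Copg2 runs flat at about the same level in both groups.

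SAR1, the GTPase that starts coat assembly, is encoded by Sar1a and Sar1b. Sar1a ranged from 159 to 213 CPM in tdTom+ samples (median 178) and from 76.9 to 92.8 CPM in tdTom- samples (median 85.5), without overlap and with a log2 fold change of 1.07 (SE 0.0613, adjusted p = 3.77e-12). Sar1b, the form known for its role in the export of large lipoprotein particles, ranged from 47.6 to 85.1 CPM in tdTom+ samples (median 68.3) and from 40.5 to 67.5 CPM in tdTom- samples (median 56.3). Its groups overlapped and it was higher in 7 of 8 mice, with a log2 fold change of 0.26 (SE 0.118, adjusted p = 0.0648); the paired fit called it higher (adjusted p = 0.0013). Sar1a rose more than Sar1b in 8 of 8 mice, by 0.82 ± 0.25 on the log2 scale (exact permutation test, adjusted p = 0.00781), and its median share of the pair per kilobase was 57.4% in tdTom+ and 42.6% in tdTom- samples. These shares overlapped between the groups, at 47.4% to 66.0% and 35.4% to 50.6%, although each mouse moved the same way.

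Sec16a and Sec16b encode large scaffolds of the ER exit site. Sec16a ranged from 230.5 to 333 CPM in tdTom+ samples (median 299) and from 101 to 124 CPM in tdTom- samples (median 112), 2.59-fold higher and without overlap, with a log2 fold change of 1.37 (SE 0.0745, adjusted p = 1.67e-12). Sec16b ranged from 44.5 to 57.0 CPM in tdTom+ samples (median 49.8) and from 36.0 to 44.2 CPM in tdTom- samples (median 42.0), close together but without overlap, with a log2 fold change of 0.30 (SE 0.0595, adjusted p = 2.06e-04). Sec16a rose more in 8 of 8 mice, by 1.07 ± 0.23 on the log2 scale (exact permutation test, adjusted p = 0.00781). The outer cage genes moved less than Sec24d or Sec16a: Sec31a had a log2 fold change of 0.89 and Sec13, whose protein is also a part of the nuclear pore, one of 0.72. Both passed the test. Sec31a differed little from mouse to mouse, with within-mouse differences of 0.81 to 0.97 on the log2 CPM scale.

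In the COPI coat, 8 of 9 genes were higher, beside 25.5% of all genes tested, and Copg2 was not called. The median log2 fold change of the 9 was 0.87. The subunits that have 1 gene each moved by similar amounts, from 0.78 for Arcn1 (δ-COP) to 1.12 for Copb1 (β-COP), with Copa (α-COP) at 0.87, Copb2 (β′-COP) at 1.05 and Cope (ε-COP) at 1.08. Copb1 ranged from 321 to 418 CPM in tdTom+ samples (median 368) and from 157 to 192 CPM in tdTom- samples (median 170.5), with a log2 fold change of 1.12 (SE 0.0613, adjusted p = 1.88e-12). Copb2 ranged from 364 to 479.5 CPM in tdTom+ samples (median 449) and from 195 to 231 CPM in tdTom- samples (median 209.5), with a log2 fold change of 1.05 (SE 0.0663, adjusted p = 1.92e-11). Cope ranged from 205 to 237 CPM in tdTom+ samples (median 221) and from 91.1 to 112 CPM in tdTom- samples (median 103), with a log2 fold change of 1.08 (SE 0.0526, adjusted p = 2.92e-13). None of these genes had overlapping groups, and 15.2% of all genes tested were higher without overlap.

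The remaining subunits, γ-COP and ζ-COP, each have a pair of genes, and in both pairs 1 gene departed from the rest of the coat. Copz2 (chr11:96849870-96861203, plus strand) showed the largest change of all 37 genes, and its log2 fold change stood at percentile 99.8 of all genes tested. It ranged from 36.5 to 47.5 CPM in tdTom+ samples (median 41.5) and from 0.875 to 2.04 CPM in tdTom- samples (median 1.56), with a log2 fold change of 4.74 (SE 0.132, adjusted p = 4.20e-16), a 26.7-fold difference. Every tdTom- value was above the 0.0655 to 0.182 CPM that 3 counts stand for at these depths. Copz1, the widely expressed form, ranged from 218 to 281 CPM in tdTom+ samples (median 248) and from 124 to 155 CPM in tdTom- samples (median 139), with a log2 fold change of 0.83 (SE 0.0661, adjusted p = 7.01e-10). Copz2 was nonetheless the minor form in both groups: its share of the 2 genes per kilobase was 8.95% to 12.6% in tdTom+ and 0.424% to 1.13% in tdTom- samples. The changes of Copz1 and Copz2 differed by -3.82 ± 0.36 on the log2 scale (exact permutation test, adjusted p = 0.00781).

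Copg2 was the COPI gene without a detected difference. It ranged from 57.4 to 69.3 CPM in tdTom+ samples (median 64.2) and from 54.5 to 69.6 CPM in tdTom- samples (median 63.5); the groups overlapped almost wholly, 4 mice went up and 4 down, and the log2 fold change was 0.03 (SE 0.0564, adjusted p = 0.705), or -0.026 with library totals in place of TMM scaling. Copg1 ranged from 252 to 336 CPM in tdTom+ samples (median 312) and from 158 to 183 CPM in tdTom- samples (median 171), without overlap and with a log2 fold change of 0.84 (SE 0.0628, adjusted p = 2.87e-10). Copg1 made up 64.0% to 67.0% of the pair per kilobase in tdTom+ and 51.0% to 54.3% in tdTom- samples, 2 narrow ranges that did not meet. The difference between their changes, 0.80 ± 0.099 on the log2 scale, was in the same direction in 8 of 8 mice (exact permutation test, adjusted p = 0.00781).

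**Figure D3:**
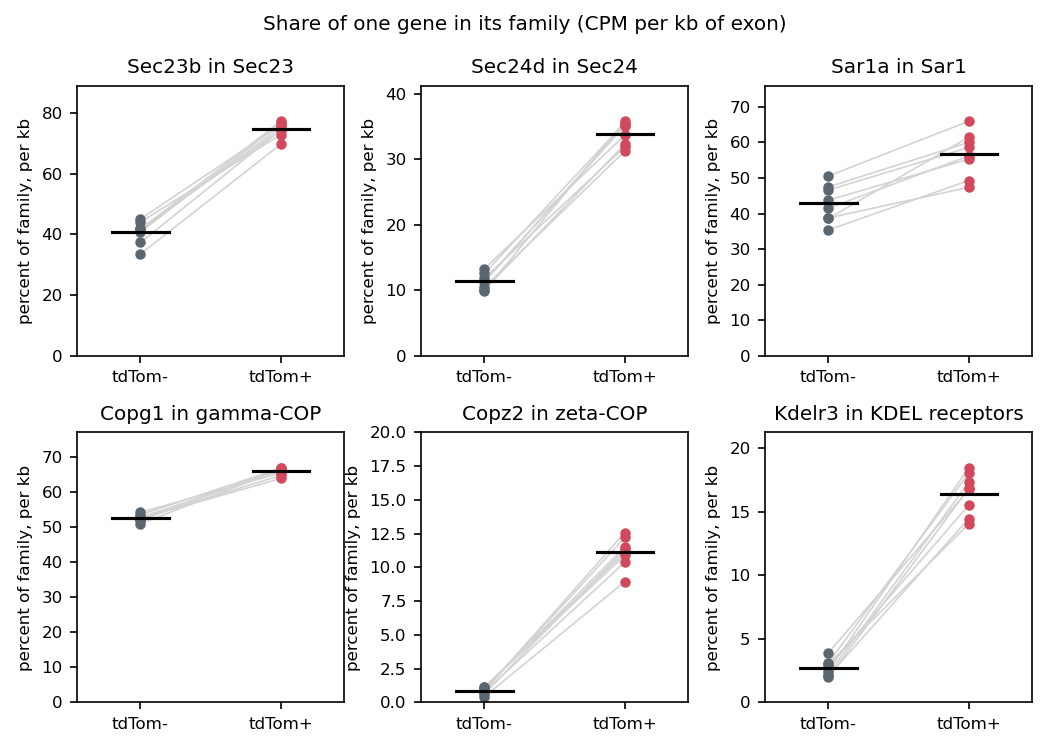
Share of 1 gene in the summed level of its gene family, in percent of CPM per kb of exon, in each of 16 samples. Grey lines join the samples of a mouse, black bars are means of 8, and axes start at 0 but differ in range. The share rises along every line, and only the Sar1a panel shows groups that overlap.

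The ARF GTPases that recruit the COPI coat were both higher. Arf4 ranged from 528 to 626 CPM in tdTom+ samples (median 573) and from 189.8 to 230.5 CPM in tdTom- samples (median 218), with a log2 fold change of 1.43 (SE 0.0611, adjusted p = 4.35e-14). Arf1, the main recruiter of COPI on the Golgi, ranged from 596 to 693 CPM in tdTom+ samples (median 639) and from 409 to 484 CPM in tdTom- samples (median 440.5), with a log2 fold change of 0.53 (SE 0.0556, adjusted p = 4.80e-08). Neither overlapped between groups, as 15.2% of all genes tested did not in that direction. Arf4 rose more than Arf1 in 8 of 8 mice, by a log2 difference of 0.90 ± 0.072 (SD), and Arf1 went from 73.9% to 60.1% of their summed level per kilobase at the median (exact permutation test, adjusted p = 0.00781). Arf1 remained the member with the highest level per kilobase in both groups, at 306 ± 16.2 against 212 ± 11.3 CPM per kb.

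KDEL receptors bind soluble ER residents that have reached the Golgi and bring them back in COPI vesicles. All 3 genes rose, in the order Kdelr3, Kdelr2 and Kdelr1, beside 25.5% of all genes tested called higher. Kdelr3 (chr15:79516408-79527739, plus strand) ranged from 77.2 to 117 CPM in tdTom+ samples (median 102) and from 3.71 to 9.08 CPM in tdTom- samples (median 5.38), 17.6-fold higher, with a log2 fold change of 4.14 (SE 0.143, adjusted p = 2.39e-15). Kdelr2 ranged from 369 to 473 CPM in tdTom+ samples (median 389.7) and from 114 to 141 CPM in tdTom- samples (median 122), with a log2 fold change of 1.69 (SE 0.0642, adjusted p = 8.47e-15). Kdelr1 ranged from 239 to 286 CPM in tdTom+ samples (median 258) and from 127 to 155 CPM in tdTom- samples (median 142), with a log2 fold change of 0.89 (SE 0.0572, adjusted p = 2.58e-11). No group overlapped with the other for any of the 3, a separation seen for 15.2% of all genes tested in that direction. Each pair of the 3 differed in change in 8 of 8 mice (exact permutation test, adjusted p = 0.00781 for each of 3 pairs).

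Their order of level was not the order of their changes. Kdelr1 held 50.8% of the summed level of the 3 per kilobase in tdTom- samples and Kdelr2 46.4% at the median, while in tdTom+ samples Kdelr2 held 50.1% and Kdelr1 32.4%. Kdelr3 was the smallest part in both, at 1.97% to 3.89% and 14.1% to 18.5%. The summed level of the 3 receptors was 2.84-fold higher in tdTom+ cells at the median of the 8 mice (range 2.59 to 3.70). By role, that was the largest rise of a summed level as a ratio, though not as an amount. Means were 426 against 147 CPM per kb for the KDEL receptors, 26.6 against 11.0 for the SNARE Sec22b alone, 671 against 314 for the p24 proteins, 586 against 303 for COPI, 509.5 against 287 for the ARF genes, 158 against 85.0 for the lectin receptors and 422 against 263 for COPII.

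**Figure D4:**
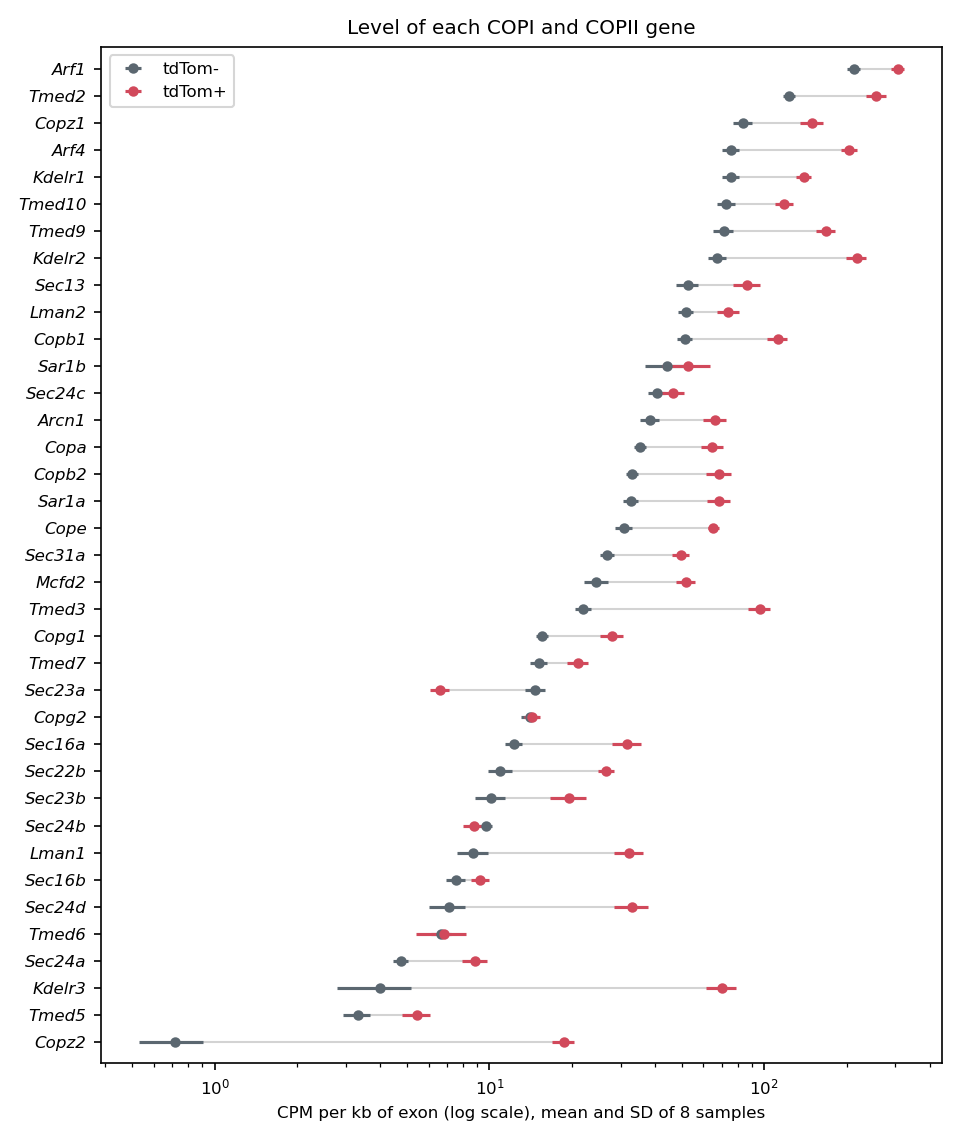
Level of each of the 37 genes in CPM per kb of exon on a log axis, as mean and SD of 8 tdTom- (grey) and 8 tdTom+ samples (red), ordered by the tdTom- level. Copz2 is the lowest gene in tdTom- cells and Arf1 the highest in both groups, and Sec23a and Sec24b are the only genes whose red point lies left of the grey one.

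The lectin receptors take glycoproteins from the ER. Lman1 works as a complex with Mcfd2, best known for carrying clotting factors, and Lman2 is a related lectin. Lman1 ranged from 161 to 234 CPM in tdTom+ samples (median 213) and from 47.4 to 66.2 CPM in tdTom- samples (median 56.5), with a log2 fold change of 1.88 (SE 0.0874, adjusted p = 1.48e-13). Mcfd2 ranged from 123 to 151 CPM in tdTom+ samples (median 134) and from 50.2 to 71.2 CPM in tdTom- samples (median 64.5), with a log2 fold change of 1.08 (SE 0.0671, adjusted p = 1.34e-11). Both therefore rose, Lman1 by more. Lman2 ranged from 279 to 354 CPM in tdTom+ samples (median 322) and from 204 to 245 CPM in tdTom- samples (median 219.5), with a log2 fold change of 0.52 (SE 0.0632, adjusted p = 4.72e-07), and Lman1 rose by 1.37 ± 0.17 more than Lman2 on the log2 scale (exact permutation test, adjusted p = 0.00781). None of the 3 genes had overlapping groups, beside 15.2% of all genes tested that were higher without overlap.

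The p24 proteins form complexes from different subfamilies and cycle between the ER and the Golgi with both coats. Of 7 genes 6 were higher, beside 25.5% of all genes tested, and Tmed6 was not called. The median log2 fold change of the 7 was 0.71. Tmed3 led, at 241 to 313 CPM in tdTom+ samples (median 267) and 55.5 to 67.7 CPM in tdTom- samples (median 63.6), with a log2 fold change of 2.13 (SE 0.0654, adjusted p = 5.34e-16). Tmed9 ranged from 206 to 265 CPM in tdTom+ samples (median 237) and from 86.7 to 112 CPM in tdTom- samples (median 100.1), with a log2 fold change of 1.24 (SE 0.0632, adjusted p = 6.58e-13). Tmed2, the most abundant p24 gene per kilobase at 256 ± 21.5 against 123 ± 6.45 CPM per kb, ranged from 566 to 728 CPM in tdTom+ samples (median 641) and from 293 to 342 CPM in tdTom- samples (median 306), with a log2 fold change of 1.05 (SE 0.0621, adjusted p = 5.93e-12). Its main partner Tmed10 had a log2 fold change of 0.70 and also passed the test. All 4 had groups that did not overlap, a separation seen for 15.2% of all genes tested in that direction.

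Tmed7, of the same subfamily as Tmed3, ranged from 152 to 199 CPM in tdTom+ samples (median 189.9) and from 122 to 146 CPM in tdTom- samples (median 134), with a log2 fold change of 0.47 (SE 0.0612, adjusted p = 9.73e-07). Tmed3 was 80.1% to 84.3% of their summed level per kilobase in tdTom+ and 54.1% to 62.1% in tdTom- samples, and its change exceeded that of Tmed7 by 1.66 ± 0.13 on the log2 scale (exact permutation test, adjusted p = 0.00781). Tmed5 ranged from 34.5 to 47.4 CPM in tdTom+ samples (median 42.6) and from 22.3 to 30.4 CPM in tdTom- samples (median 25.7), with a log2 fold change of 0.71 (SE 0.0796, adjusted p = 1.27e-07). Tmed6 was by far the lowest member in raw level of tdTom+ cells, at 4.08 to 7.31 CPM in tdTom+ samples (median 6.14) and 5.02 to 6.46 CPM in tdTom- samples (median 5.79). It went up in 4 mice and down in 4, with a log2 fold change of 0.02 (SE 0.117, adjusted p = 0.871) that turned to -0.036 with library totals, and at 80 counts or more per tdTom+ sample it had the largest SE of the p24 genes. Sec22b, a SNARE that acts in fusion between the ER and the Golgi in both directions, ranged from 97.6 to 117 CPM in tdTom+ samples (median 105) and from 38.3 to 51.5 CPM in tdTom- samples (median 44.0), without overlap and with a log2 fold change of 1.28 (SE 0.0617, adjusted p = 2.61e-13).

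Other genes of the same transport step were followed as a wider list of 62 regulators, receptors, tethers and fusion factors, of which 60 could be tested. Of these, 42 were higher and 4 lower, with a median log2 fold change of 0.47, below the 0.89 of the coat genes. Those are 70% and 6.67% of the list, beside 25.5% higher and 25.5% lower over all genes tested. By subgroup, 21 of 25 tethers and fusion factors, 6 of 8 COPI regulators, 11 of 18 cargo receptors and membrane proteins of the cycle and 4 of 9 COPII regulators and cargo adaptors were higher. The cargo receptors and membrane proteins held 3 of the 4 genes called lower and the COPII regulators the remaining one, and differences between subgroups were not tested. The largest rise was that of Mia3, whose protein TANGO1 loads bulky cargo such as collagen into COPII carriers; it ranged from 218 to 299.9 CPM in tdTom+ samples (median 272) and from 60.1 to 69.5 CPM in tdTom- samples (median 64.0), with a log2 fold change of 2.06 (SE 0.0679, adjusted p = 1.38e-15). Next came Ergic1 (1.67), a membrane protein of the intermediate compartment, Yipf5 (1.40), the tether Uso1 (1.38) and the Golgi stacking protein Gorasp2 (1.32). In the other direction, Cnih4, a cargo receptor of the cornichon family, had a log2 fold change of -1.06, the p24 gene Tmed1 one of -0.73, and Pef1, a calcium-binding regulator of SEC31, one of -0.27, each in 8 of 8 mice. Tmed8, the fourth gene called lower, fell in 7 of 8 mice.

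Steps before and after were set beside these. Of 36 genes for translocation into the ER and the first steps of glycosylation, 33 were higher and 2 lower, with a median log2 fold change of 1.10. Of 29 genes for clathrin and the adaptor coats that act from the Golgi onward and at the cell surface, 10 were higher and 8 lower, with a median of 0.06. Over all genes tested, 25.5% were higher and 25.5% lower. The clathrin list lay near those shares, at 34.5% and 27.6%, while the translocation list had 91.7% and 5.56%. ACGTG was in 44.8% of the promoter windows of the translocation list, 28.4% of those of the wider transport list and 22.2% of those of the clathrin list, beside 72.2% for the 37 genes.

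**Figure D5:**
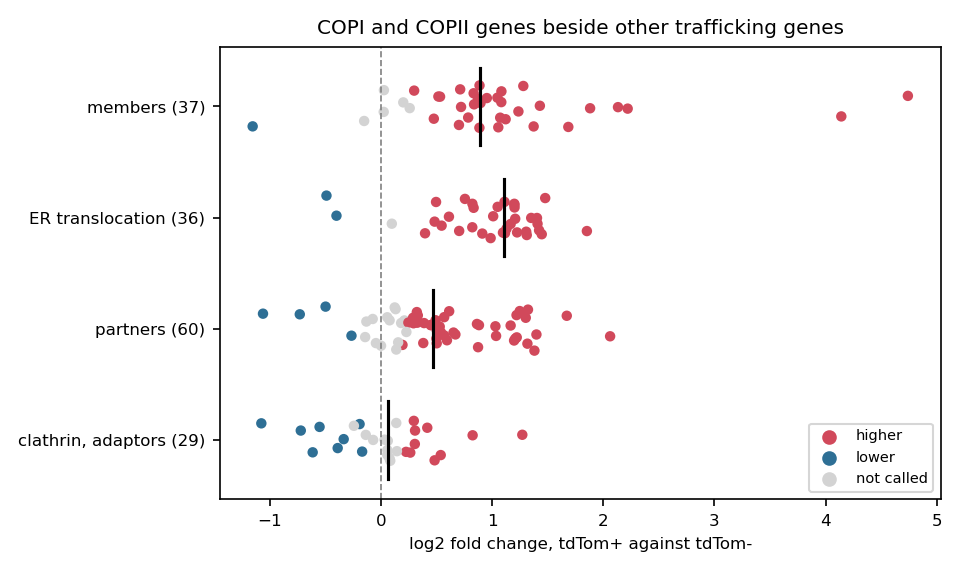
Log2 fold change of each gene tested in 4 lists, with the number tested in brackets and a black line at each median. Red points were called higher, blue points lower and grey points not called at an adjusted p of 0.01. Medians fall at 0.89 for the COPI and COPII genes, 1.10 for ER translocation, 0.47 for the partners and 0.06 for the clathrin list.

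Finally, 10 transcription factors known to act on secretory genes or secretory fate were all higher in tdTom+ cells. Creb3l4 ranged from 154 to 191 CPM in tdTom+ samples (median 181) and from 7.67 to 17.4 CPM in tdTom- samples (median 11.0), with a log2 fold change of 3.996. Creb3l1 ranged from 722 to 984 CPM in tdTom+ samples (median 795) and from 142 to 229 CPM in tdTom- samples (median 199), with a log2 fold change of 2.09. Xbp1, a factor of the unfolded protein response, ranged from 418 to 497 CPM in tdTom+ samples (median 449) and from 104 to 145 CPM in tdTom- samples (median 129), with a log2 fold change of 1.80. Smaller differences were found for Atf6 (0.87), Creb3l2 (0.87), Creb3 (0.73) and Atf6b (0.59). The factors of secretory lineages differed most: Atoh1 itself, which shares its allele with the driver of the label, had a log2 fold change of 4.54, Spdef one of 4.34 and Bhlha15 one of 4.18. None of the 10 had overlapping groups. Of all genes tested, 25.5% were called higher and 15.2% were higher without overlap. Levels of factors and of coat genes were measured in the same samples, and no relation between them was tested.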

How the data were processed

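RNA of 16 samples was measured by stranded mRNA sequencing (TruSeq). The authors aligned reads to GRCm38 (GRCm38.p3 per the labels) with TopHat2 2.1.1 and deposited raw counts per gene on exons, made with featureCounts 1.5.0-p1 and strand setting 2 per the file headers (the labels name Subread 1.5.2). The labels also name DESeq2 1.14.1, for the authors' own comparison, which is not used here.

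Counts were tested with edgeR 4.0.16 (limma 3.58.1, R 4.3.3): filterByExpr left 15841 genes, followed by TMM scaling, glmQLFit and glmQLFTest, and Benjamini-Hochberg adjustment at 0.01. CPM use TMM library sizes, log2 CPM a prior count of 2, and levels per kb the exon length in the files. Shares within a family and rankings of genes by level per kb depend on these lengths. Each SE was calculated as the absolute log2 fold change divided by the square root of the F statistic of the quasi-likelihood test. Symbols were matched for 44585 genes. The scripts were tested on simulated counts. Pairs of related genes were compared within mice by an exact permutation test over sign flips. Promoter windows are those of RefSeq.

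Groups came from the sample labels, with 8 samples each, and the mouse number in the titles ties the tdTom+ and tdTom- samples of an animal. The deviations of same-mouse samples from their group means correlated at 0.223 to 0.409 in the 8 mice. The fit without the mouse was the main one because the study's methods name no mouse term. Replicates of a group differed beyond sampling noise (smallest chi-square per degree of freedom 11.7), so all were counted.

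Members described in full were those with an absolute log2 fold change of at least 1 or in a fixed pair; of the wider list, up to 5 changes in each direction that held in 8 mice were named, and promoter sequences come from the 5 members with the largest changes where they could be shown. The members and lists were chosen with earlier results of these data known, and the pairs were drawn from these members. Alternatives were other scalings, filters, tests and subsets of mice.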

Additional observations from a re-analysis of the deposited data

Results flagged for a closer look

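In 2 of 74 groups of 8 samples (37 genes in each of 2 sorts), 1 sample stood apart from the others by the gap criterion of Dixon's test; chance alone would give about 3.7. The tdTom+ sample of mouse 1 had 8.885 log2 CPM of Kdelr2, with the other tdTom+ samples between 8.53 and 8.67. Among tdTom- samples, that of mouse 4 had 5.652 log2 CPM of Mcfd2, with the others between 5.94 and 6.16. That sample is also the deepest library, and its part in the value was not tested. Both genes kept their call when each mouse was left out in turn.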

How the results depend on the processing

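Of 178 recomputed values of the counts, the median and the pairs, 172 stayed within 1.5 times the count reported or, for the median, within the spread between mice (SD 0.0985). The members called lower became 2, with Sec24b joining Sec23a, under the replicate block (the paired fit by mouse), with the number series as a term and at an adjusted p of 0.05. With the first number series only, 2546 genes were higher and 2559 lower, and 2 genes of the wider transport list were lower; this fit has fewer samples. Under the replicate block 33 members were higher and the median over all members was 0.89. Leaving out each mouse in turn gave 31 to 32 members higher, medians over all members of 0.87 to 0.91, 3670 to 4177 genes higher and 3700 to 3914 lower. All 14 pairs passed without each mouse too, which 8 of 8 mice in one direction fixes in advance and which is no sign of stability.

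For single members, 31 of 37 kept their call and direction under the 23 alternatives that refitted them; the looser threshold of 0.05, not among these, adds Sec24b and Sec24c to the calls. Of 851 values, 829 did so, 13 newly passed the threshold (Sec24b, Sec24c and Sar1b), 1 no longer passed (Sec16b, 0.32 with the first number series only) and 8 changed sign, all for genes not called. Copg2 was at -0.026 with library totals only. Tmed6 was at -0.036 with library totals only, -0.014 with limma-voom, -0.048 with the replicate block and GC and length correction, -0.002 with the third number series only, and -0.025 to 0.082 when each mouse was left out. Levels are relative to each library. Depth limits most the members with the fewest counts in a sample, Copz2 (as few as 24 in tdTom-), Kdelr3 (73 in tdTom-) and Tmed6 (80 in tdTom+). Their SEs were 0.117 to 0.143, but SEs of that size were not limited to low counts. Sar1b, with at least 907 counts in every sample, had an SE of 0.118.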
